A study of Mus musculus with 55 samples.

Results

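The genes described are 5 ligands (Vegfa, Vegfc, Pgf, Angpt1 and Angpt2) and 5 receptors (Flt1, Kdr, Flt4, Tek and Tie1) of the VEGF and angiopoietin systems. They were taken by name from a table of transcript levels with 24478 gene symbols, and all 10 were found. RNA was sequenced from cells of C57B/L6 mouse liver sorted by FACS, 27 libraries from normal liver and 28 after partial hepatectomy (PH, surgical removal of part of the liver, after which the rest regrows). The 10 sorted populations were clonal biliary epithelial cells (cBEC), biliary epithelial cells (BEC), ducts described as non-progenitor (NPD), hepatocytes (HC), endothelial cells (EC), liver sinusoidal endothelial cells (LSEC), Kupffer cells (KC, the resident macrophages), hepatic stellate cells (HSC), cells sorted on Thy1, and blood cells. A population had 2 libraries per condition except where stated here: normal hepatocytes, cBEC and BEC had 4, normal LSEC 3, PH hepatocytes 4, PH LSEC 5, and the PH stellate, Kupffer and EC sorts 3. The labels give no time after surgery, age, batch or animal, so p-values measure the spread between these libraries, which may be technical.

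VEGF ligands act mainly on endothelial cells. Vegfa binds the tyrosine kinases Flt1 (VEGFR1) and Kdr (VEGFR2), of which Kdr carries most of the growth signal and Flt1 binds ligand tightly but signals weakly. Pgf binds Flt1, and Vegfc acts mainly through Flt4 (VEGFR3), a receptor of lymphatic and also of sinusoidal endothelium. Angpt1 activates the receptor Tek (Tie2) and stabilises vessels, Angpt2 competes with it at the same receptor, and Tie1 is an orphan partner of Tek. Sinusoidal endothelium lines the liver's capillaries, and after partial hepatectomy its cells both divide and send growth signals to hepatocytes.

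Levels are FPKM, which are scaled to transcript length and library size, so levels may also be set side by side between genes. The sum of FPKM per library ran from 624726 to 1203197, replicates correlated at 0.919 to 0.996 on log2(FPKM + 1), and the read depth is unknown. Lists of 8 marker genes per cell type were used to check the sorts. In normal liver each sort had its own list on top (the biliary list for cBEC, BEC and NPD) except EC, where the LSEC list scored 8.66 and the EC list 8.20 (mean log2(FPKM + 1)). After PH the blood sort carried the Kupffer list (10.28, against 6.23 in normal blood) above the blood list (4.71, against 8.93), and the Thy1 sort carried the EC list (7.24) and the LSEC list (7.21) above the Thy1 list (5.19). The KC list was 10.49 in normal and 11.32 in PH Kupffer libraries. In these bulk samples fewer cells of a type and less RNA per cell cannot be told apart.

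**Figure D1:**
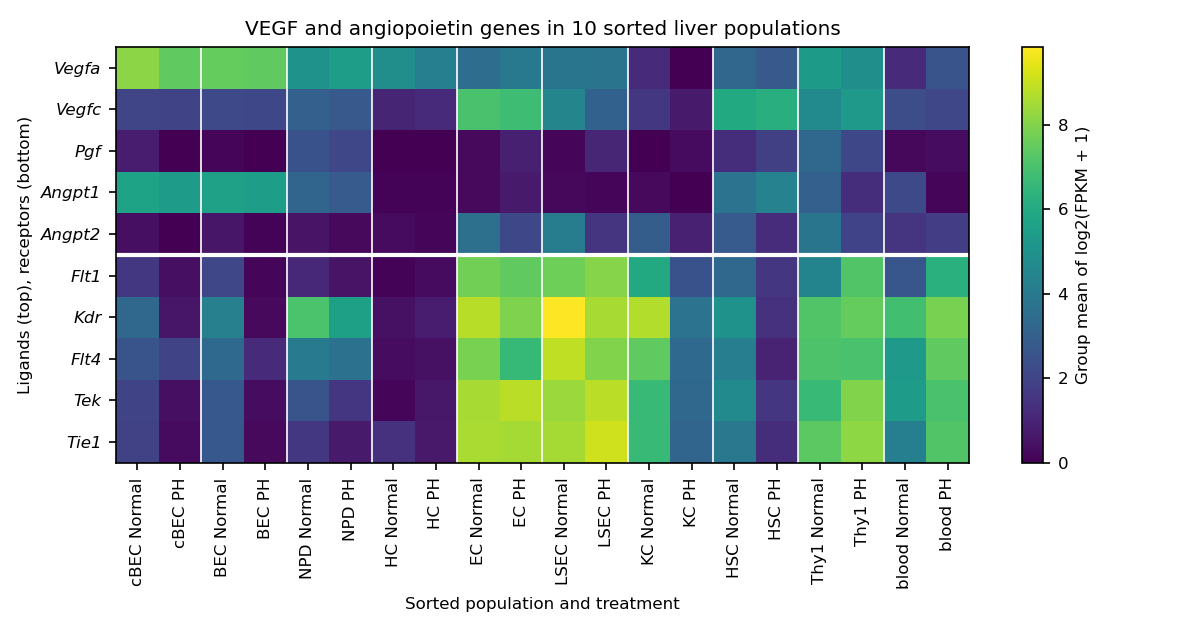
Group mean of log2(FPKM + 1) for the 5 ligands (top) and 5 receptors (bottom) in the 20 groups of population and treatment, with colour as the scale. The receptors are high in EC and LSEC, Vegfa and Angpt1 in cBEC and BEC, and the receptor block of the Kupffer sort is dark after PH.

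Among the ligands, Vegfa (the main VEGF ligand; chr17:46153943-46169326, minus strand, mm9) was highest in the biliary sorts. Normal cBEC libraries had 245, 269, 303 and 309.7 FPKM and normal BEC libraries 182, 155, 190.0 and 197 FPKM. Every cBEC library lay above every BEC library, and both sorts lay above all libraries of the other 8 populations. Normal hepatocytes had 15.7, 56.4, 49.5 and 14.3 FPKM, which is 34.0 ± 22.1 (SD, n = 4) against 282 ± 30.1 (SD, n = 4) in cBEC. The 4 hepatocyte libraries formed a low and a high pair and overlapped with NPD (31.5 and 31.2 FPKM) and with Thy1 (20.02 and 80.1 FPKM). Normal LSEC had 11.6, 11.9 and 15.9 FPKM and normal EC 10.8 and 10.4 FPKM. Normal HSC had 5.64 and 12.3 FPKM, normal KC 1.76 and 0.975 FPKM and normal blood 0.832 and 1.75 FPKM. The highest biliary group mean was thus 282 FPKM where the EC mean was 10.6 ± 0.261 (SD, n = 2). The table lists Vegfa 10 times, 7 transcripts from the outer start and 3 that start inside the gene, with means over all libraries of 50.6 to 60.2 FPKM, and the highest was used.

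Angpt1, the activating Tek ligand (chr15:42256213-42508523, minus strand, mm9), was also highest in the biliary sorts. Normal cBEC had 34.6, 58.6, 57.4 and 62.5 FPKM and normal BEC 28.7, 47.2, 69.9 and 59.6 FPKM. These groups overlapped each other, and each lay above every library of the other 8 populations. HSC came next with 15.1 and 10.5 FPKM, overlapping with Thy1 (2.96 and 15.9 FPKM) and NPD (10.8 and 6.12 FPKM). Blood had 3.34 and 3.73 FPKM. In EC, LSEC, KC and HC, Angpt1 was at or below 0.424 FPKM in each normal library.

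Vegfc, the Flt4 ligand (chr8:55162886-55271808, plus strand, mm9), was highest in the endothelial sort. Normal EC had 121 and 138 FPKM, above every library of the other 9 populations. Normal HSC had 73.3 and 52.8 FPKM and Thy1 16.0 and 39.1 FPKM. Normal LSEC were split, with 56.4 and 69.0 FPKM in replicates 1 and 3 and 1.76 FPKM in replicate 2. The remaining normal libraries were at or below 7.86 FPKM. Pgf, the Flt1 ligand (chr12:86507589-86518263, minus strand, mm9), was the lowest of the 10 genes, with 6.87 and 11.1 FPKM in normal Thy1, 4.46 and 4.61 FPKM in NPD and 0 and 4.99 FPKM in HSC. It was listed at 0 in all 4 normal and all 4 PH hepatocyte libraries.

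Angpt2, the context-dependent Tek ligand (chr8:18690263-18741562, minus strand, mm9), was found mainly in the vessel sorts. Normal LSEC had 18.1, 12.3 and 22.9 FPKM and normal EC 14.99 and 8.5 FPKM, which overlapped. Normal Thy1 had 43.2 and 3.53 FPKM, so that its highest mean (23.4 ± 28.0, SD, n = 2) rests on replicate 1. KC had 5.1 and 8.33 FPKM and HSC 6.48 and 5.58 FPKM. The gene lies inside Mcph1 (chr8:18595173-18803188), a gene for a chromosome condensation factor on the opposite strand, and no strand setting is stated. Mcph1 was at 3.53 ± 2.56 FPKM (SD, n = 3) in normal LSEC and 2.24 ± 0.643 (SD, n = 5) in PH LSEC.

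**Figure D2:**
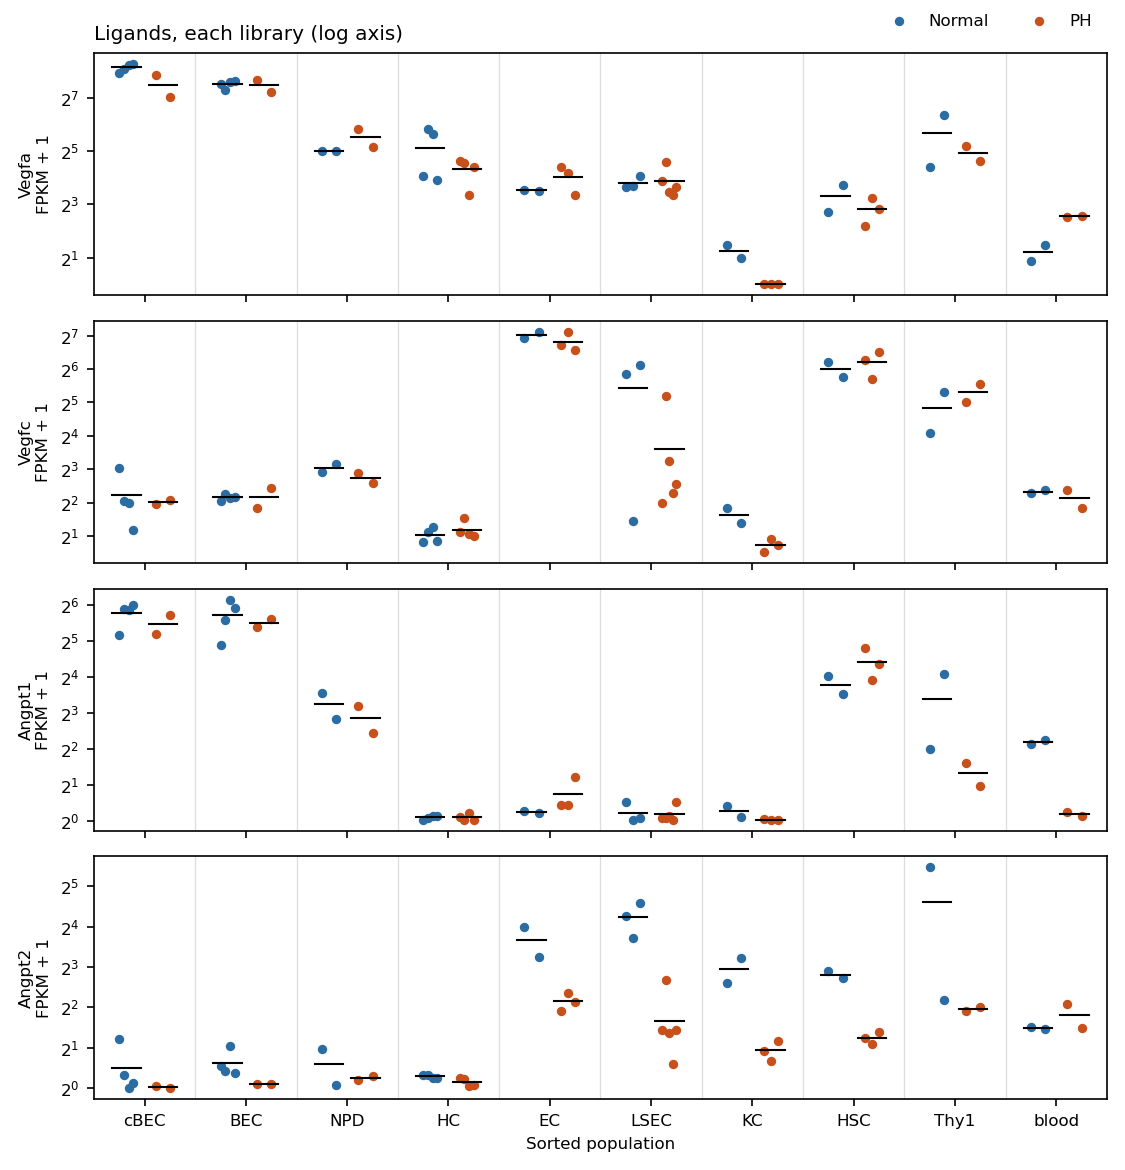
FPKM + 1 (log axis) of Vegfa, Vegfc, Angpt1 and Angpt2 in each library, by sorted population. Points are libraries, blue for normal and orange for PH, and bars are group means. Vegfa and Angpt1 are highest in cBEC and BEC under both conditions, and the 5 PH LSEC libraries lie below the 3 normal ones for Angpt2.

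The receptors were highest in the 2 endothelial sorts. Kdr (chr5:76329299-76374453, minus strand, mm9) reached the highest level of the 10 genes, with 958, 1275 and 630.1 FPKM in normal LSEC, above every library of the other 9 populations. Normal EC had 611 and 312 FPKM and overlapped with KC at 358 and 483 FPKM. Thy1 (231 and 89.9 FPKM), NPD (108 and 164 FPKM) and blood (114 and 118 FPKM) formed a lower tier whose ranges overlapped. Normal HSC were split at 9.01 and 104 FPKM, BEC had 10.6, 27.8, 43.4 and 9.21 FPKM, and hepatocytes were at or below 1.24 FPKM.

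Flt4 (chr11:49423181-49466241, plus strand, mm9) had 494, 638 and 333 FPKM in normal LSEC and 299.5 and 179 FPKM in normal EC, with no overlap between them. Thy1 libraries were far apart, at 396 and 45.9 FPKM, and KC had 148 and 200.4 FPKM. Flt1 (chr5:148373772-148537564, minus strand, mm9) was level between the endothelial sorts, at 222 and 206 FPKM in EC and 199.7, 226 and 183 FPKM in LSEC. KC followed at 53.0 and 71.3 FPKM, and blood was low at 4.83 and 5.57 FPKM. The table has a single Flt1 transcript, so its soluble and membrane forms are not separated.

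Tek (chr4:94405980-94541667, plus strand, mm9) had 379.7 and 379 FPKM in normal EC, just above LSEC at 348, 315 and 329 FPKM. Tie1 (chr4:118143796-118162454, minus strand, mm9) had 363 and 413 FPKM in EC and 397, 299 and 397 FPKM in LSEC, which overlapped. Both receptors were next highest in Thy1, Tek at 80.6 and 129 FPKM and Tie1 at 175 and 156 FPKM. KC had 93.5 and 102 FPKM of Tek and 87.9 and 116 FPKM of Tie1. Tie1 relative to Tek was near 1 in both endothelial sorts (0.957 to 1.09 in EC, 0.951 to 1.21 in LSEC) and was 0.425 and 0.429 in blood.

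**Figure D3:**
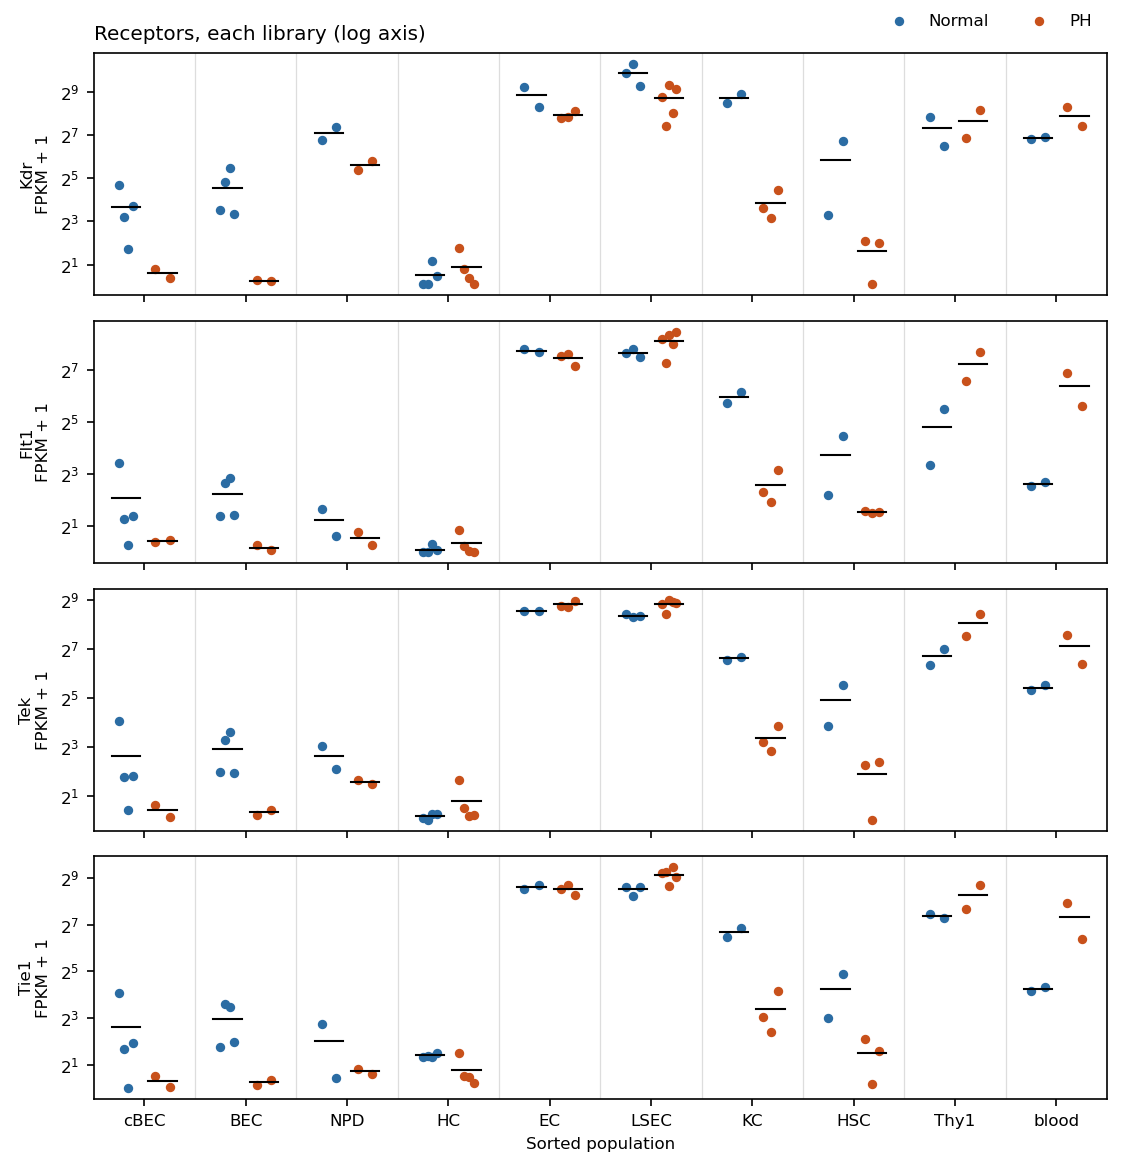
FPKM + 1 (log axis) of Kdr, Flt1, Tek and Tie1 in each library, by sorted population. Points are libraries, blue for normal and orange for PH, and bars are group means. The 3 PH Kupffer libraries lie below both normal ones for all 4 receptors, and both PH blood libraries lie above the normal ones.

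Promoter sequence is shown for 4 receptors that were high in the same 2 endothelial sorts: the 250 bases before the start, 5′ to 3′ on the gene's strand, from RefSeq on GRCm38.p6 (not the build of the table). Capitals mark matches, on either strand, to AGGAAG or CGGAAG, hexamers around the GGAA core that ETS factors bind. Flt1 lies at chr5:147726012-147726261 (minus strand), Tie1 at chr4:118489850-118490099 (minus strand), Kdr at chr5:75978456-75978705 (minus strand) and Tek at chr4:94739039-94739288 (plus strand).
Flt1: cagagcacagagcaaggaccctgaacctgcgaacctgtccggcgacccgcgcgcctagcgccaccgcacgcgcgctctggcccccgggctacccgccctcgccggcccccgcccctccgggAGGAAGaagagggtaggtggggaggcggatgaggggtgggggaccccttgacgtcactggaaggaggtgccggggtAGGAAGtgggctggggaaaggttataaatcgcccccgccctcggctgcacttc
Tie1: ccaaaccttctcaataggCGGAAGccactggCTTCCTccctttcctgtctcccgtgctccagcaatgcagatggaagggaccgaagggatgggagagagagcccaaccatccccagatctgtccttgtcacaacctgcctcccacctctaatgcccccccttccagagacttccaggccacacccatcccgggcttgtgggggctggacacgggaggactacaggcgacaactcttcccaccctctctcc
Kdr: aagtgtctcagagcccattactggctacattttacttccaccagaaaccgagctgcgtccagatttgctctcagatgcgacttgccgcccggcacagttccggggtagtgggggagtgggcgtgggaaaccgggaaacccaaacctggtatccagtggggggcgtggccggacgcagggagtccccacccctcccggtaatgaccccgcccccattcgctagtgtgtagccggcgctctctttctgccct
Tek: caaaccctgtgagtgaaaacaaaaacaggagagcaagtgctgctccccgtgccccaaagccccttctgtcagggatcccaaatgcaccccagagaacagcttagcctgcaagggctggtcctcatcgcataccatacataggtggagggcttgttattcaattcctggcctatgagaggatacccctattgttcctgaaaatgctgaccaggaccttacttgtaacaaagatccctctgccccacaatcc
Flt1 and Tie1 held 2 matches each, which do not overlap one another. Flt1 had AGGAAG at bases -129 to -124 and -53 to -48 from the start, and Tie1 had CGGAAG at -232 to -227 and the reverse complement of AGGAAG at -219 to -214. Kdr and Tek held none in this window, nor did Flt4, Vegfa, Vegfc or Pgf, and no entry was matched for Angpt1 or Angpt2. Of 32851 promoter windows of this length, 29.5% held AGGAAG, 13.6% CGGAAG, 39.2% either and 11.3% 2 or more matches.

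When EC and LSEC together were compared with the mean of the other 8 populations in normal liver (limma on log2(FPKM + 1), adjusted p under 0.05), all 10 genes passed, 7 higher and 3 lower. Of all 16139 genes tested, 55.3% were called, 21.3% higher and 34% lower, and the 10 genes had a median difference of 3.41 on the log2 scale against -0.158 for all genes. The receptors were higher by 5.05 (SE 0.41, adjusted p 1.56e-09, limma) for Flt1, 4.82 (SE 0.45, 1.45e-08) for Tie1, 4.61 (SE 0.38, 2.15e-09) for Tek, 4.08 (SE 0.44, 1.11e-07) for Flt4 and 3.94 (SE 0.46, 3.17e-07) for Kdr. Of the ligands, Vegfc was higher by 2.89 (SE 0.47, adjusted p 2.09e-05, limma) and Angpt2 by 2.30 (SE 0.32, 3.44e-06). Lower were Angpt1 at -2.76 (SE 0.24, adjusted p 3.71e-09, limma), Vegfa at -0.89 (SE 0.28, 0.0104) and Pgf at -0.81 (SE 0.26, 0.0106). The Pgf call was lost without EC replicate 1 (-0.78, adjusted p 0.0514), with a pseudocount of 0.1 (-1.32, 0.0999) and after quantile normalization (-0.55, 0.0549).

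Partner genes of the pathway, taken from fixed lists, were compared the same way. Of 12 co-receptors and receptor regulators, 9 were higher in the endothelial sorts and 2 lower. Ptprb, the phosphatase that restrains Tek, had a mean of 899 ± 32.5 FPKM (SD, n = 5) in EC and LSEC against 51.1 ± 87.2 (SD, n = 22) in the other libraries. Nrp1, a VEGF co-receptor, had 372 ± 115 against 43.0 ± 62.0 FPKM, and the endothelial cadherin Cdh5 621 ± 59.4 against 63.8 ± 128 FPKM. The 2 lower genes were the phosphatase Ptprj and the semaphorin Sema3c. Of 12 pathway targets tested 8 were higher and 2 lower, among them the Notch ligand Dll4 at 136 ± 38.5 against 10.3 ± 13.7 FPKM. Of 25 signalling genes 9 were higher and 9 lower, with the nitric oxide synthase Nos3 at 98.7 ± 20.3 against 6.34 ± 10.1 FPKM. Of 6 further ligands and maturation factors 0 were higher and 4 lower (Ccbe1, Svep1, Adamts3 and Vegfd), and of 6 oxygen-sensing genes 3 were higher (Epas1, Egln1 and Arnt).

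The HC, HSC, Thy1 and KC sorts were each compared with the other normal populations in the same 27 libraries, so these comparisons share samples with the endothelial one. In hepatocytes 9 of 10 genes were lower, where 82.6% of all genes were called, 67.6% as lower. The exception was Vegfa, with a mean of 34.0 FPKM in hepatocytes against 91.2 FPKM over the other libraries. On the log2 scale it was 0.54 above the mean of the other populations (SE 0.30, adjusted p 0.101, limma). Its value passed after quantile normalization (0.96, adjusted p 0.00284), upper-quartile scaling (1.279, 0.000408), without HC replicate 1 (0.81, 0.0277) or 4 (0.86, 0.0181) and without Thy1 replicate 2 (0.65, 0.0276). In HSC 3 of 10 genes were called, where 46.3% of all genes were, 13.5% as higher and 32.9% as lower. Angpt1 was higher by 1.48 on the log2 scale (SE 0.35, adjusted p 0.00159, limma). In FPKM its mean was the lower, at 12.8 in HSC against 18.5 over the other libraries. Vegfc was higher by 2.82 (SE 0.67, adjusted p 0.00187, limma), and Vegfa was at -1.28 (SE 0.41, 0.0143). Without HSC replicate 1 these became 1.23 with an adjusted p of 0.0567 for Angpt1 and -0.78 with 0.301 for Vegfa.

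In the Thy1 sort 5 of 10 genes were higher and 0 lower, where 24.4% of all genes were called, 20.1% as higher. They were Pgf at 2.70 (SE 0.37, adjusted p 7.45e-06, limma), Tie1 at 2.98 (SE 0.66, 0.00157), Flt4 at 2.20 (SE 0.64, 0.0137), Tek at 2.12 (SE 0.55, 0.00645) and Angpt2 at 1.95 (SE 0.47, 0.00317). Without Thy1 replicate 1, Flt4 was at 0.66 (adjusted p 0.637) and Angpt2 at 0.31 (0.681), and without replicate 2, Tek was at 1.78 (0.138). Of the 8 EC markers 6 were also higher in this sort, with summed levels of 994 to 1358 FPKM, and their part in these values was not tested. In the KC sort 8 of 10 genes were called, where 40% of all genes were, 16.9% as higher and 23.1% as lower: the 5 receptors higher, and Vegfa, Vegfc and Angpt1 lower. Of 8 LSEC markers 7 and of 8 EC markers 6 were higher there as well, with summed levels of 3828 to 5108 and 1097 to 1337 FPKM. Their part in the receptor levels was not tested.

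PH was then compared with normal liver within each population. Of 100 gene-by-population pairs 79 passed the filter on low values, and 17 of those were called, 6 higher and 11 lower. These stood in the Kupffer sort (7), the blood sort (7), LSEC (1), BEC (1) and NPD (1). Of all genes tested, 36.8% were called in the Kupffer sort, 64% in blood, 8.46% in LSEC, 1.81% in BEC and 15.2% in NPD. In the remaining populations the share ran from 0.00747% (Thy1) to 6.19% (HC). A single fit of all 20 groups, which shares one estimate of the spread, called 25, where it called 1.24% (EC) to 40.2% (blood) of all genes in a population. A test of whether the PH change differed between the 10 populations passed for 7 of 10 genes, where 47.8% of all genes passed. These were the 5 receptors, Angpt1 and Angpt2, with adjusted p from 2.03e-07 (Flt1) to 0.00116 (Angpt1) in limma's F test. It did not pass for Vegfa (adjusted p 0.0589), Vegfc (0.707) or Pgf (0.316).

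**Figure D4:**
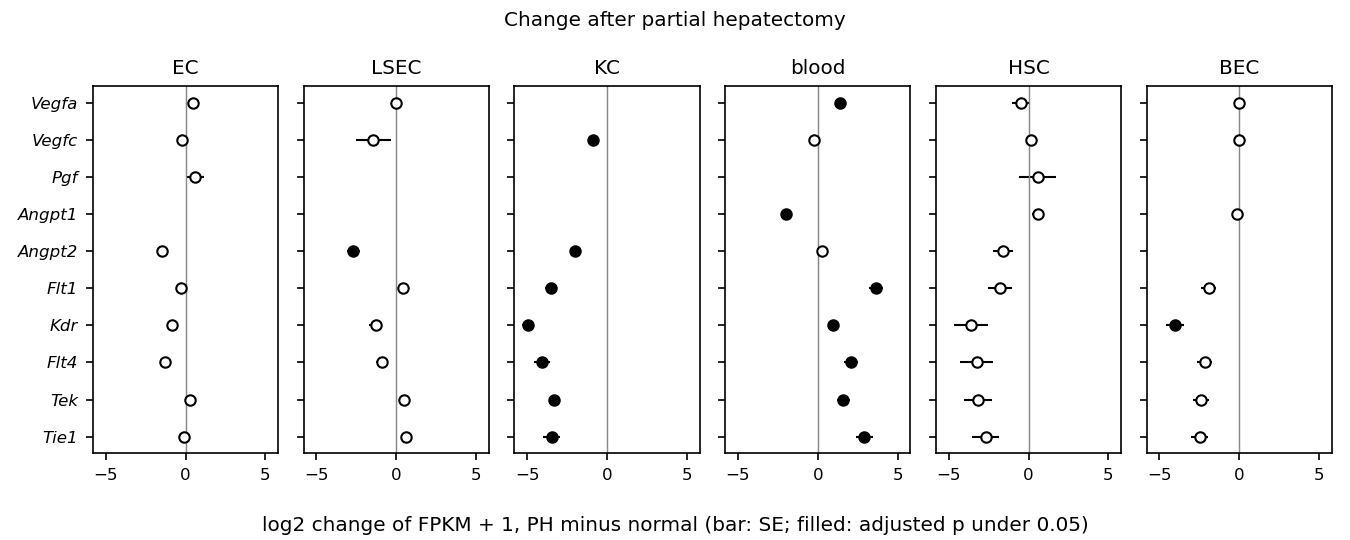
Change of log2(FPKM + 1), PH minus normal, of each tested gene in 6 of the 10 populations. Points are limma estimates, bars 1 SE, and filled points have an adjusted p under 0.05. All 7 tested genes lie left of zero and are filled in KC, and 7 of 9 are filled in blood, 6 of them right of zero.

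In LSEC the ligand Angpt2 fell after PH. Its 5 PH libraries had 1.73, 5.38, 1.55, 0.51 and 1.69 FPKM against 18.1, 12.3 and 22.9 FPKM in normal LSEC, with no overlap. The log2 change was -2.69 (SE 0.40, adjusted p 0.00521, limma). It was the 1 gene called of 8 tested, where 8.46% of all genes were called, 4.31% as lower, and the tested members had a median change of -0.464 against -0.0326 for all genes. The call ended with a block on the replicate number (-2.36, adjusted p 0.15).

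The 5 receptors had differences of both signs in LSEC, and none passed. Kdr had 434, 169.8, 646, 263 and 574 FPKM after PH, with only replicate 3 reaching into the normal range of 630.1 to 1275 FPKM. Its change was -1.30 (SE 0.43, adjusted p 0.0954, limma). Flt4 had 278, 153, 383, 166 and 359 FPKM, a change of -0.92 (SE 0.35, adjusted p 0.137), with 2 libraries inside the normal range. Tie1 had 586, 614, 407, 699 and 528 FPKM, each above the 3 normal libraries. Its change was 0.63 (SE 0.21, adjusted p 0.0991, limma), and without PH replicate 3 it was 0.74 with 0.0327. Tek had 462, 347, 522, 492 and 473 FPKM, with replicate 2 alone inside the normal range, and differed from normal by 0.46 (SE 0.18, adjusted p 0.141, limma). Without PH replicate 2 that became 0.56 with 0.0482. Flt1 had 291, 156, 328, 259.5 and 356 FPKM, a change of 0.40 (SE 0.26, adjusted p 0.364), and 4 of 5 libraries were above all normal ones. Together 5 of the 8 tested genes had an unadjusted p under 0.05, as had 24.9% of all genes.

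Vegfc in PH LSEC had 3.01, 35.2, 8.56, 3.88 and 4.86 FPKM, overlapping with the split normal libraries, and its change of -1.42 (SE 1.10, adjusted p 0.462, limma) did not pass. Vegfa had 13.8, 23.2, 10.2, 9.12 and 11.8 FPKM, around the normal 13.1 ± 2.44 (SD, n = 3). Of the 8 LSEC markers 3 were lower in PH LSEC (Dnase1l3, Clec4g and Oit3), with summed levels of 2034 to 6834 FPKM against 6263 to 11703 in normal LSEC. Of the EC markers 2 were lower (Robo4 and Erg), but the EC list did not fall as a whole. Its summed levels were 2738 to 4163 FPKM against 3091 to 3122 in normal LSEC, and its score was 7.99 against 7.70. The LSEC list scored 8.57 in PH and 9.70 in normal LSEC. No marker of either list was at 0. The part of these markers in the Angpt2 and receptor values was not tested.

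Pathway partners in LSEC changed in both directions. The Notch ligand Dll4 fell, its mean going from 122 ± 43.0 FPKM (SD, n = 3) in normal libraries to 13.8 ± 9.67 (SD, n = 5), a change of -3.30 (SE 0.59, adjusted p 0.0124, limma). Esm1, a secreted proteoglycan of activated endothelium, fell from 27.6 ± 26.5 to 0.740 ± 0.805 FPKM, and Foxo1, a transcription factor restrained by Tek signalling, from 42.9 ± 3.80 to 29.8 ± 3.19 FPKM. Apln rose from 1.283 ± 0.302 to 7.91 ± 4.46 FPKM, Klf2 from 171 ± 17.9 to 343 ± 99.7 FPKM and Plaur from 9.97 ± 0.713 to 19.1 ± 4.53 FPKM, so 3 of 10 targets were higher and 3 lower. Among 10 co-receptors and regulators 3 were higher and 2 lower. Nrp1 fell from 424 ± 100.5 to 212 ± 59.6 FPKM and Efnb2, the ephrin of arterial endothelium, from 54.4 ± 25.9 to 13.7 ± 8.29 FPKM. The neuropilin ligand Sema3f rose from 154 ± 32.8 to 490.3 ± 35.5 FPKM. Nos3 was the 1 gene of 20 signalling genes called and rose from 89.9 ± 21.9 to 198 ± 38.7 FPKM. Of the oxygen-sensing genes the HIF subunit Epas1 fell from 338 ± 31.6 to 157 ± 19.6 FPKM and the prolyl hydroxylase Egln3 rose from 1.994 ± 1.003 to 8.51 ± 5.10 FPKM.

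In EC none of 9 tested genes was called by limma, and none in the fit of all 20 groups, where 0.0249% and 1.24% of all genes were called. At an unadjusted p under 0.05 there were 3, beside 10.8% of all genes. Angpt2 had 2.78, 4.12 and 3.4 FPKM after PH against 14.99 and 8.5 FPKM, without overlap (change -1.49, SE 0.31, adjusted p 0.203, limma). Flt4 had 87.6, 111 and 89.2 FPKM against 299.5 and 179 FPKM (-1.27, SE 0.26, 0.206), and Kdr had 224, 229.6 and 282 FPKM against 611 and 312 FPKM (-0.84, SE 0.31, 0.41). All 3 were below both normal libraries in each PH library. So was Flt1, at 187, 198 and 142 FPKM against 222 and 206 FPKM (-0.29, SE 0.21, adjusted p 0.675, limma). How many of all genes separated in this way was not determined. The LSEC marker score was 8.66 in normal and 7.89 in PH EC, the KC score 1.51 and 2.95, and the biliary score 1.64 and 3.05, with 0 markers of these lists called, and their part in these values was not tested. Vegfc, at 105, 137 and 93.3 FPKM, and Tie1, at 370.4, 418 and 307 FPKM, overlapped with normal EC. Tek, at 441, 423 and 502 FPKM, was above both normal libraries. No partner gene of the 5 pathway lists was called in EC.

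EC and LSEC were also set against each other. In normal liver 0 of 8 tested genes were called by limma, where 0.00843% of all genes were, and 2 had an unadjusted p under 0.05 (9.24% of all genes): Kdr (-1.07 in EC relative to LSEC, SE 0.39, adjusted p 0.465) and Flt4 (-1.02, SE 0.34, 0.402). In PH liver 2 of 9 were called, where 9.03% of all genes were, 5.87% as higher in EC and 3.16% as lower. Vegfc was higher in EC (105, 137 and 93.3 FPKM) than in LSEC (3.01 to 35.2 FPKM), by 3.74 (SE 0.61, adjusted p 0.00369, limma). Flt4 was lower in EC (87.6, 111 and 89.2 FPKM) than in LSEC (153 to 383 FPKM), at -1.38 (SE 0.32, adjusted p 0.022, limma). Neither gene's libraries overlapped. The Flt4 call was lost without PH EC replicate 1 (-1.32, adjusted p 0.102), 2 (-1.49, 0.0663) or 3 (-1.33, 0.0985) and without PH LSEC replicate 1 (-1.34, 0.0558) or 5 (-1.25, 0.0502). It was also lost without the filter (0.054), after quantile normalization (0.0532), with a block on the replicate number (0.085) and in the fit of all 20 groups (0.14).

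The PH change itself did not pass as different between EC and LSEC for any of the 10 genes (0 called by limma, 0 with an unadjusted p under 0.05, against 0.345% and 6.26% of all genes). Angpt2 had the smallest p of that test, 0.0607 (adjusted p 0.854). Of the partner genes only Esm1 passed, with a difference of 3.43 (SE 0.68, adjusted p 0.00673, limma). Its mean was 14.1 FPKM in both normal and PH EC (SD 3.93, n = 2, and 12.4, n = 3), beside the fall in LSEC. In PH liver Esm1, Dll4, Nr4a1 and Pdgfb of 10 targets were higher in EC than in LSEC, with Dll4 at 89.9 ± 37.5 (SD, n = 3) against 13.8 ± 9.67 FPKM (SD, n = 5). Vegfd, a further Flt4 ligand, was at 4.79 ± 3.20 FPKM in PH EC and 0.208 ± 0.236 FPKM in PH LSEC.

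The balance between Kdr and Tek within a library was lower after PH in 4 sorts, a pattern chosen after its values were seen and given without a test. Kdr divided by Tek was 1.91 to 4.05 in normal LSEC and 0.490 to 1.24 in PH LSEC. It was 0.824 to 1.61 in normal EC and 0.507 to 0.562 in PH EC. In KC it was 3.83 to 4.73 before and 1.30 to 1.53 after, and in blood 2.64 to 2.93 before and 1.63 to 2.01 after. In none of these sorts did the ranges overlap. In the Thy1 sort they did, with 0.697 to 2.87 in normal and 0.625 to 0.833 in PH libraries. The HSC ranges overlapped too, at 0.659 to 2.275 in normal libraries and 0.714 to 0.860 in the PH libraries where both genes reached 1 FPKM. Kdr divided by Flt1 likewise was 3.45 to 5.65 in normal LSEC and 1.01 to 1.97 in PH LSEC. In NPD Kdr exceeded Tek by far in both conditions, 15.1 to 49.5 times in normal and 19.3 to 29.8 times in PH libraries.

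**Figure D5:**
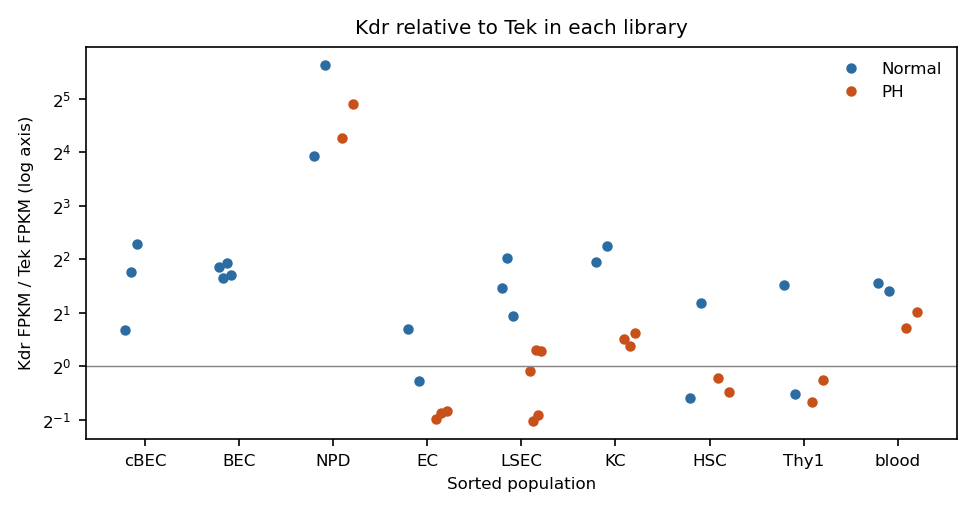
Kdr FPKM divided by Tek FPKM (log axis) in each library where both genes reached 1 FPKM, by sorted population, hepatocytes left out. The line marks equal levels. Normal LSEC libraries lie between 1.91 and 4.05 and PH LSEC libraries between 0.490 and 1.24, and NPD libraries lie far above all others.

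In the Kupffer sort all 7 tested genes were lower after PH, where 36.8% of all genes were called, 20.1% as lower. The median change of the 7 was -3.46 against -0.0401 for all genes. Kdr had 11.5, 7.99 and 20.7 FPKM after PH against 358 and 483 FPKM in normal KC (change -4.95, SE 0.39, adjusted p 0.00146, limma). Flt4 had 8.05, 5.03 and 18.4 FPKM against 148 and 200.4 FPKM (-4.09, SE 0.50, 0.00348). Both normal Kdr libraries had lain inside the range of normal EC, and each PH library lay below that of every endothelial library.

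Flt1 in KC had 3.97, 2.84 and 7.97 FPKM after PH against 53.0 and 71.3 FPKM (change -3.49, SE 0.38, adjusted p 0.00265, limma). Tek had 8.13, 6.17 and 13.5 FPKM against 93.5 and 102 FPKM (-3.33, SE 0.31, 0.00183), and Tie1 7.2, 4.31 and 17.1 FPKM against 87.9 and 116 FPKM (-3.46, SE 0.52, 0.00628). No PH library of these receptors overlapped with a normal one. Angpt2 had 0.874, 0.595 and 1.26 FPKM against 5.1 and 8.33 FPKM (-1.997, SE 0.27, 0.00497), and Vegfc 0.433, 0.881 and 0.663 FPKM against 2.58 and 1.61 FPKM (-0.89, SE 0.24, 0.0363). Vegfc was under 1 FPKM in every PH library, so it passed the filter through normal KC and could only be called lower. Angpt2 reached 1 FPKM after PH in replicate 3 alone, too few to pass the filter without normal KC. This left it little room for a rise. Vegfa was listed at 0 in the 3 PH libraries and was at 1.76 and 0.975 FPKM in normal KC, and was not tested. Tie1 lost the call without normal KC replicate 1 (-3.66, adjusted p 0.0551) or 2 (-3.27, 0.0652) and Angpt2 without normal KC replicate 2 (-1.69, 0.0561). Vegfc lost it without PH KC replicate 1 (-0.79, 0.109) or 2 (-0.99, 0.0626), after quantile normalization (-0.50, 0.18) and in the fit of all 20 groups (0.513), which left 6 of the 7 called.

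Endothelial markers fell in the same sort. All 8 LSEC markers were lower after PH, with summed levels of 326 to 575 FPKM against 3828 to 5108 FPKM in normal KC, and 6 of 8 EC markers were lower, with 304 to 533 against 1097 to 1337 FPKM. None of either list was at 0 in PH KC. The scavenger receptor Stab2 went from 375 ± 13.3 (SD, n = 2) to 56.8 ± 3.93 FPKM (SD, n = 3). Of the 8 Kupffer markers 3 were higher and 0 lower. Their part in the receptor values was not tested. Of 10 co-receptors and regulators 8 were lower, such as Ptprb (291 ± 34.3 to 16.4 ± 7.59 FPKM) and Nrp2 (54.2 ± 8.88 to 4.86 ± 3.31 FPKM). Of 11 targets 7 were lower, led by Dll4 (36.1 ± 1.97 to 1.36 ± 0.439 FPKM) and Esm1 (11.0 ± 4.51 to 0.289 ± 0.336 FPKM), and of 22 signalling genes 3 were higher and 8 lower.

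In the blood sort 7 of 9 tested genes were called, 6 higher and 1 lower, where 64% of all genes were called (24.3% higher, 39.7% lower). The median change of the tested members was 1.39 against -0.310 for all genes. Flt1 had 118 and 48.2 FPKM after PH against 4.83 and 5.57 FPKM (change 3.63, SE 0.44, adjusted p 0.00287, limma). Tie1 had 242 and 82.6 FPKM against 16.7 and 19.1 FPKM (2.92, SE 0.52, 0.00801), Flt4 269 and 108 against 37.2 and 42.1 FPKM, and Tek 191 and 84.2 against 38.9 and 44.8 FPKM. PH replicate 1 was the higher in each. Kdr rose from 114 and 118 FPKM to 312 and 169.5 FPKM (0.98, SE 0.32, 0.0475). Of the ligands Vegfa rose from 0.832 and 1.75 FPKM to 4.82 and 4.97 FPKM (1.39, SE 0.26, adjusted p 0.00946, limma). In normal blood only replicate 2 reached 1 FPKM, so Vegfa passed the filter through PH blood. That left it little room for a fall. Angpt1 fell from 3.34 and 3.73 FPKM to 0.18 and 0.102 FPKM (-1.99, SE 0.17, 0.00134). It was under 1 FPKM in both PH libraries, so it passed the filter through normal blood and could only be called lower.

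The changes of Flt4 and Tek in blood were 2.09 (SE 0.45, adjusted p 0.0139, limma) and 1.58 (SE 0.41, 0.0243). Without normal blood replicate 1 the call ended for Vegfa (1.10, adjusted p 0.0776), Kdr (0.95, 0.175), Flt4 (1.997, 0.0694) and Tek (1.48, 0.106). Without normal blood replicate 2 it ended for Kdr (1.01, 0.151), Flt4 (2.17, 0.0554) and Tek (1.68, 0.0785). In the fit of all 20 groups it ended for Kdr (0.384) and Tek (0.0664). Markers of other cells moved with these genes: all 8 EC, all 8 LSEC and all 8 Kupffer markers were higher and 7 of 8 blood markers lower. Summed EC markers were 860 to 1771 FPKM against 212 to 224 in normal blood, and LSEC markers 2759 to 6092 against 772 to 876 FPKM, with none at 0. Their part in the values was not tested. All 10 tested co-receptors and regulators were higher, including Cdh5 (17.3 ± 0.705 to 411 ± 85.5 FPKM, SD, n = 2 each), and Vegfb, another Flt1 ligand, rose from 2.66 ± 0.267 to 22.3 ± 0.949 FPKM.

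In the biliary sorts Vegfa and Angpt1 stayed above all other populations after PH, and Kdr fell in BEC. Vegfa had 204 and 149 FPKM in PH BEC and 228 and 129.8 FPKM in PH cBEC, still above every PH library of the other 8 populations. PH cBEC replicate 1 (228 FPKM), which enters all PH cBEC values here, carries the treatment tag normal. Both PH cBEC libraries lay below every normal cBEC library (245 to 309.7 FPKM). The change in cBEC was -0.70 (SE 0.25, adjusted p 0.438, limma). Angpt1 had 41.2 and 47.8 FPKM in PH BEC and 35.7 and 51.2 FPKM in PH cBEC (change in cBEC -0.28, SE 0.27, 0.738), inside the normal range of both sorts. In BEC Kdr was under 1 FPKM in both PH libraries. It passed the filter through the normal ones alone, which left little room for a rise. Kdr was the 1 gene of 8 called there, where 1.81% of all genes were (1.57% as lower). It had 0.233 and 0.165 FPKM against 10.6, 27.8, 43.4 and 9.21 FPKM in normal BEC (-4.04, SE 0.57, adjusted p 0.0168, limma). That call was lost without PH BEC replicate 1 (-4.08, 0.139) or 2 (-4.00, 0.201), without the filter on low values (0.0628) and after quantile normalization (0.054).

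The other receptors in BEC had differences of -2.47 (Tie1, SE 0.55, adjusted p 0.0647, limma), -2.39 (Tek, SE 0.50, 0.0571), -2.15 (Flt4, SE 0.47, 0.0645) and -1.91 (Flt1, SE 0.46, 0.0851). Each PH library was below all 4 normal ones, and how many of all genes separated in this way was not determined. Flt1, Tek and Tie1 were also under 1 FPKM in both PH libraries and passed the filter through normal BEC alone. Tie1, Tek, Flt4 and Flt1 passed with a pseudocount of 0.1. Flt4 and Tek also passed without normal BEC replicate 3 (0.0374 and 0.0426) or 4 (0.029 and 0.041). In cBEC 0 of 8 tested genes were called by limma, where 0.0681% of all genes were, 2 had an unadjusted p under 0.05 (10.2% of all genes), and the fit of all 20 groups called 1 (3.12% of all genes). That was Kdr, at 0.711 and 0.304 FPKM against 24.8, 8.24, 2.31 and 12.0 FPKM (-2.75, SE 0.74, adjusted p 0.37 within cBEC and 0.02 in that fit). Kdr, Flt1, Tek and Tie1 were under 1 FPKM in both PH cBEC libraries. Within cBEC they passed the filter through the normal libraries alone, which left little room for a rise. In cBEC the LSEC list scored 2.84 in normal and 0.95 in PH libraries (summed 5.36 to 148 and 9.14 to 11.0 FPKM) and the EC list summed to 27.7 to 165.5 and 14.9 to 19.9 FPKM, with 0 of 8 called in each. Of the 8 KC markers 7 were at 0 in both PH cBEC libraries. In BEC 6 of 8 LSEC markers were lower after PH, with summed levels of 1.05 to 4.68 FPKM against 97.1 to 372 FPKM and Gata4 at 0 in both PH libraries. Of 7 tested EC markers 2 were lower (16.4 to 17.1 against 47.0 to 141 FPKM), and of 8 KC markers 6 (43.9 to 50.6 against 148 to 412 FPKM, with Timd4 and Adgre1 at 0). Their part in the receptor values was not tested.

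NPD had more Kdr than any of the other 4 receptors, in FPKM. Normal NPD had 108 and 164 FPKM of Kdr beside 7.17 and 3.31 FPKM of Tek, 16.5 and 14.1 FPKM of Flt4, 5.71 and 0.354 FPKM of Tie1 and 2.2 and 0.531 FPKM of Flt1. After PH Kdr had 40.9 and 54.1 FPKM, a change of -1.48 (SE 0.27, adjusted p 0.0281, limma), and it was the 1 gene of 7 called, where 15.2% of all genes were, 5.51% as lower. The call was lost without PH NPD replicate 1 (-1.29, 0.157) or 2 (-1.68, 0.0644), without the filter (0.0719) and in the fit of all 20 groups (0.284). Tek had 2.12 and 1.82 FPKM after PH (-1.0, SE 0.38, 0.136), and without normal NPD replicate 2 its change was -1.46 with 0.00975. Of the ligands Vegfa had 56.2 and 34.4 FPKM, above both normal libraries, but was not called (0.48, SE 0.26, adjusted p 0.26, limma). Vegfd rose from 7.11 ± 1.15 to 19.98 ± 3.31 FPKM (SD, n = 2 each, change 1.37, SE 0.22, adjusted p 0.0212, limma). Some markers of other cells were also lower in PH NPD. The Thy1 list summed to 799 to 915 FPKM, inside the normal 768 to 970 FPKM, with a score of 4.74 against 5.24. The LSEC list summed to 34.9 to 43.3 against 64.1 to 233 FPKM, without overlap (0 of 8 called, median change -1.59), and the EC list to 5.77 to 12.3 against 9.99 to 61.1 FPKM (0 of 3 called). Of the KC list 7 of 8 genes were lower (21.3 to 30.5 against 151 to 312 FPKM) and of the HSC list 1 of 6 (1148 to 1233 against 2954 to 3467 FPKM). The part of these markers in the Kdr value was not tested.

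In HSC and Thy1 0 of 10 genes were called by limma, where 0.00853% and 0.00747% of all genes were, so these fits made almost no calls of any kind. At an unadjusted p under 0.05 there were 5 genes in HSC and 3 in Thy1, beside 8.48% and 18.1% of all genes, and the fit of all 20 groups called 6 and 3 (11.9% and 11.4% of all genes). In HSC the ligands Vegfc (75.7, 51.2 and 90.3 FPKM) and Angpt1 (26.6, 14.2 and 19.5 FPKM) overlapped with normal HSC. The receptors were low in each PH library, Kdr at 3.29, 0.0813 and 3.02 FPKM against 9.01 and 104 FPKM (-3.61, SE 1.05, adjusted p 0.455 in limma and 0.000907 in the fit of all 20 groups). Tek had 3.83, 0 and 4.24 FPKM against 13.7 and 45.7 FPKM (-3.16, SE 0.87, 0.434 and 0.000665). The LSEC list summed to 78.1 to 133 FPKM in PH HSC and 266 to 1238 in normal HSC, and the EC list to 46.1 to 78.5 and 90.3 to 350.3 FPKM. Their part in the receptor values was not tested.

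In the Thy1 sort Flt1 had 96.1 and 207 FPKM after PH against 9.15 and 44.8 FPKM, without overlap (2.72, SE 0.79, adjusted p 0.212 in limma and 0.00432 in the fit of all 20 groups). Tek had 183 and 346 FPKM against 80.6 and 129 FPKM (1.30, SE 0.45, 0.247). Angpt1 had 2.05 and 0.948 FPKM against 2.96 and 15.9 FPKM (-1.75, SE 0.75, 0.304 and 0.00267). The EC list summed to 1344 to 2559 FPKM in PH Thy1 and 994 to 1358 in normal Thy1, with none at 0. The biliary list summed to 5181 FPKM in normal replicate 2, the library with the higher Angpt1, to 871 in normal replicate 1 and to 862 to 1349 after PH. The part of these markers was not tested. Pgf, which among normal populations was highest in this sort, had 5.05 and 2.23 FPKM after PH against 6.87 and 11.1 FPKM.

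In hepatocytes 3 of 10 genes passed the filter, Vegfa, Vegfc and Tie1, and 0 were called by limma, where 6.19% of all genes were; 1 had an unadjusted p under 0.05 (21.5% of all genes), and the fit of all 20 groups called 0 (7.62% of all genes). Vegfa had 24.1, 22.2, 9.3 and 20.4 FPKM after PH, inside the normal range of 14.3 to 56.4 FPKM for 3 of 4 libraries (change -0.63, SE 0.49, adjusted p 0.5). The gene with an unadjusted p under 0.05 was Tie1 (change -0.72, SE 0.26, adjusted p 0.144, limma). It had 1.8, 0.44, 0.37 and 0.17 FPKM after PH and 1.5 to 1.86 FPKM in normal HC. Only PH replicate 1 reached 1 FPKM, so Tie1 passed the filter through normal HC, which left little room for a rise. Of the oxygen-sensing genes Egln3 rose from 6.24 ± 1.01 to 17.5 ± 5.64 FPKM (SD, n = 4 each; 1.30, SE 0.27, 0.02).

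The genes most alike in their group means on the log2(FPKM + 1) scale were sought among 12331 genes that reached 10 FPKM on average in some group, by Pearson's r over the 20 group means. These r values are descriptions with no test, since each population enters as both a normal and a PH group. Tek was closest to Mmrn2, an endothelial matrix protein (r 0.992), Tie1 to Emcn (0.991) and Flt1 to Cyyr1 (0.993). Kdr was closest to Cd55 (0.979), the water channel Aqp1 (0.972) and its co-receptor Nrp2 (0.966), and Flt4 to Adgrf5 (0.978). Among the ligands Angpt2 was closest to Dll4 (0.932), Vegfc to Hmcn1 (0.927), Angpt1 to Nek8 (0.978) and Vegfa to Sh3d19 (0.954). Within the 10 genes Tek and Tie1 had an r of 0.986, Flt1 and Tie1 0.981, Kdr and Flt4 0.960, Kdr and Flt1 0.851, and Vegfa and Angpt1 0.687.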

How the data were processed

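Whole RNA of the sorted populations was sequenced with standard Illumina libraries, per the labels' protocols. The authors deposited 1 table of FPKM, 36141 transcript rows by 55 libraries, per the file headers. The submitters' processing notes name CASAVA 1.8.2, Bowtie 1.0.0 and the build mm9, and the counting tool is not given in the sources used here. Groups follow the titles, and PH cBEC replicate 1 carries the treatment tag normal and was kept as titled. A gene with several rows was represented by that of highest mean, and starts were shifted by 1 to count from 1, since 9426 of 17613 single-row genes have a length of end minus start.

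Tests were run with limma 3.58.1 (R 4.3.3) on log2(FPKM + 1), a scale that understates the change of low genes, with trended robust variances, two-sided, Benjamini-Hochberg adjusted over all genes tested at 0.05. A gene was tested when the number of fitted libraries with at least 1 FPKM reached the size of the smaller group. Within a population, a gene under 1 FPKM in all libraries of a condition thus had little room to be called higher there. Normal and PH libraries were compared within a population, normal populations in 1 fit of 27 libraries, and responses in 1 fit of all 20 groups. EC and LSEC were compared within a treatment. Alternatives were a pseudocount of 0.1, no filter, quantile and upper-quartile scaling, the mean over a symbol's rows, a replicate block, 1 fit of all groups and leaving out each library. Named genes were the 10 members, with partner genes from 5 pathway lists, and similar patterns by correlation. The members and lists were chosen with earlier results of these data known. On simulated data, with a log2 change of 2 given to 200 genes, 177 were recovered in the LSEC design among 11501 genes, 148 in KC among 11835, 82 in blood among 12819, 49 in NPD among 13024, and 0 in HSC among 11729 and in Thy1 among 13389.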

Additional observations from a re-analysis of the deposited data

Results flagged for a closer look

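In groups of 4 or 5 libraries, 1 library stood far from the others for 6 of 37 gene values examined. The rule set the gap to the nearest library against the full range, on FPKM and not on the log2 scale. Its cutoff would set apart about 1.85 by chance if FPKM followed a normal distribution, which was not checked. The 6 values come in pairs from the same libraries. Replicate 1 of normal cBEC had 15.5 FPKM of Tek (others 0.330 to 2.46) and 9.88 FPKM of Flt1 (others 0.213 to 1.60). Its EC marker score was 4.14, against 0.743 to 2.16 in the other 3. Replicate 1 of PH HC had 2.16 FPKM of Tek (others 0.11 to 0.42) and 1.8 FPKM of Tie1 (others 0.17 to 0.44), with an EC score of 1.20 against 0.375 to 0.558. Replicate 2 of PH LSEC had 35.2 FPKM of Vegfc (others 3.01 to 8.56) and 5.38 FPKM of Angpt2 (others 0.510 to 1.73). Its EC score was 8.30, against 7.62 to 8.19.

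The PH change differed between the 10 populations, by limma's F test on 9 interaction terms, for Flt1 (adjusted p 2.03e-07), Tek (7.76e-06), Kdr (1.73e-05), Tie1 (4.02e-05), Flt4 (9.88e-05), Angpt2 (0.000959) and Angpt1 (0.00116). The receptors changed in opposite directions in the Kupffer and blood sorts: Flt1 by -3.49 and 3.63, Kdr by -4.95 and 0.98, Tek by -3.33 and 1.58. The summed LSEC markers went from 3828 to 5108 FPKM down to 326 to 575 in the former and from 772 to 876 up to 2759 to 6092 in the latter, and their part in the receptor values was not tested.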

How the results depend on the processing

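The 17 calls of PH against normal became 14 without the filter on low values, 15 after quantile normalization, 20 with a pseudocount of 0.1, 17 after upper-quartile scaling or with mean rows, and 25 in 1 fit of all 20 groups, and 12 to 19 with 1 library left out. The 10 calls of the endothelial sorts became 9 to 10 with 1 library left out, the 25 of HC, HSC, Thy1 and KC 21 to 30, and the 7 of the responses across populations 7 to 8. The 2 calls of EC against LSEC (Vegfc and Flt4 after PH) became 1 without the filter, after quantile normalization, with the replicate block or in 1 fit of all 20 groups, and 1 to 3 with 1 library left out. Of 1267 values of 69 single-gene results, 1189 stayed on their side of the threshold, 45 lost and 33 gained a call, and 0 changed sign. Of 37 called results 20 kept the call in each alternative tried. The cause of these changes was not tested.

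The replicate number was not taken as a pairing: same-numbered libraries correlated at -0.641 to 0.474 over 23 pairs, 4 of them over 0.1, and neither of the 2 populations with 3 or more pairs had each over 0.1 or each library closest to its own number. With the replicate block 21 of the 79 tested pairs were called; it ended the call of Angpt2 in LSEC (adjusted p 0.15) and added Flt1 in Thy1 (0.00265) and Flt1, Flt4, Tek and Tie1 in BEC. FPKM carry no depth, so low values have no counting interval. The labels give no batch and most PH groups have 2 or 3 libraries.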
